A study of Mus musculus with 9 samples.

Results

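Of the 28099 chromatin regions with an XBP1 peak in at least 1 of 5 unsilenced mouse livers, 4835 carried a peak only in the liver taken 6 h after partial hepatectomy (PH). These PH6h-alone sites were chosen from the lists themselves: overlapping peaks of the 5 unsilenced lists were merged where they shared at least 1 bp, and a region was kept if the PH6h list had a peak there and the other 4 lists had none. They made up 17.2% of the merged regions, each consisted of 1 PH6h peak, and together they covered 1.71 Mb of the 10.99 Mb under PH6h peaks. Absence of a peak in a list means that none was called there, not that XBP1 was absent.

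XBP1 is a basic leucine zipper transcription factor of the unfolded protein response. The endoplasmic reticulum sensor IRE1 cuts the Xbp1 messenger RNA, its ends are rejoined, and the spliced form encodes the active factor, which raises genes for protein folding, secretion and the degradation of misfolded proteins. Hepatocytes secrete most plasma proteins and carry a heavy folding load, and after partial hepatectomy the remaining lobes pass through an early priming phase before they regrow.

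The lists came from XBP1 chromatin immunoprecipitation and sequencing of whole liver of wildtype C57Bl6-J mice operated on at 8 weeks of age, with 1 library per condition. The unsilenced conditions were 6 h after PH, 48 h after PH, 6 h after a sham operation, 48 h after a sham operation, and basal liver without surgery. In the sham operation the abdomen was opened and the lobes were lifted, but no liver tissue was taken. A further 3 livers, taken 6 h and 48 h after PH and without surgery, carried an adenoviral short hairpin RNA against XBP1 for 7 days (shXBP1). Per the labels' protocols, clodronate liposomes, which deplete macrophages, preceded the virus. The labels mention a control hairpin against LacZ, but not whether the unsilenced livers received virus or liposomes, so an effect of either cannot be told apart from silencing. They do not say how many animals went into a library. In whole liver, strong occupancy in a few cells and weak occupancy in many cells cannot be told apart, and no gene or genome sequence of the build of the files (mm9) was used here, so sites are identified by coordinates alone. The unsilenced lists held between 2482 peaks (basal) and 23087 peaks (sham, 6 h), with 22071 peaks 6 h after PH, and the silenced list of that state held 4325. The number of reads behind a list is unknown. Since each condition had 1 library, differences between conditions have no replicate check, no p-value is given, and 95% intervals cover counting error only.

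The PH6h-alone sites were mostly weak peaks of their list. Each peak has a score, which the authors' files give and which was read as −log10 of the peak caller's p-value, although its scale is not stated. The score chose the members indirectly, since a weaker peak is less likely to meet a counterpart, so these values are a description. PH6h-alone sites had a median score of 11.93 (quartiles 9.69 and 16.05). PH6h peaks that lay in both 6 h lists and in no other unsilenced list had a median score of 17.2 (quartiles 11.9 and 25.66, 9647 peaks). Only 161 PH6h-alone sites (3.33%) scored 30 or more, against 17.4% of the peaks in both 6 h lists only, and 1403 (29.0%) scored under 10, against 13.1%. Low scores were not particular to them. Sites called only in the 6 h sham list (sham6h-alone sites) had a median score of 10.94, against 16.32 over that whole list. Of these sites 40.6% scored under 10, against 17.8% over the list.

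The share of PH6h peaks that stood alone fell steadily with score. In the lowest decile of the list by score, 1081 of 2207 peaks were PH6h-alone sites (49.0%, exact Clopper-Pearson 95% interval 46.9 to 51.1%). In decile 5 the share was 23.9%, with scores between 16.05 and 19. In the highest decile, from a score of 71.86 upward, it was 1 of 2208 peaks (0.0453%), and all other peaks of that decile were also called in another unsilenced liver.

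PH6h-alone sites were narrow. The rule works on peak starts and ends, so a wide peak is more likely to meet another and drop out, and widths too are a description. Their median width was 324 bp (quartiles 280 and 392), against 412 bp (quartiles 329 and 518) for peaks in both 6 h lists only. In the lowest decile by score the medians were 283 bp for PH6h-alone sites and 299 bp for the shared sites. In decile 8 they were 468 bp and 509 bp. The same order held in each decile that had at least 20 PH6h-alone sites. Among the PH6h-alone sites themselves the median width was 282 bp in the weakest quintile by score and 402 bp in the strongest, and the range over all of them was 259 to 1568 bp. Sham6h-alone sites were narrow too, with a median of 309 bp against 412 bp over the whole 6 h sham list.

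**Figure D1:**
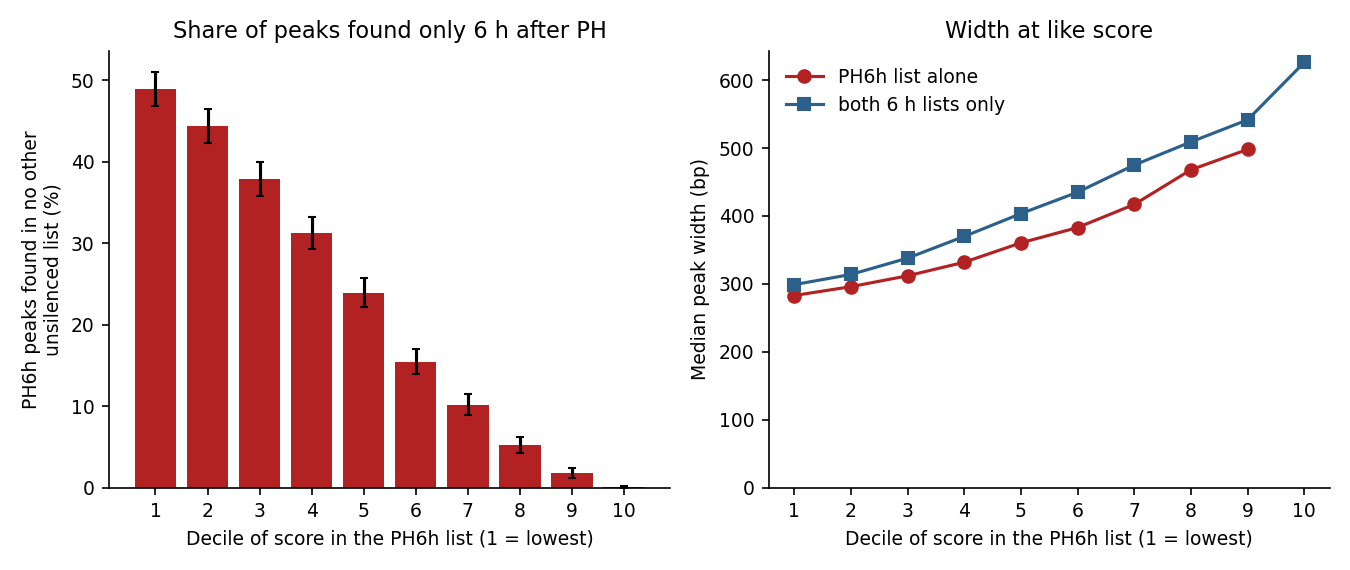
Left, the percentage of PH6h peaks found in no other unsilenced list, by decile of the list's score (decile 1 is the lowest), with exact 95% intervals as bars; the lowest decile stands at 49.0% and the highest at 0.0453%. Right, the median width in bp of PH6h-alone sites and of PH6h peaks in both 6 h lists only, where the PH6h-alone median is the smaller in each decile with 20 or more of these sites.

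The strongest PH6h-alone sites can be named one by one. The highest score was 91.26, on chromosome 9 (65048392 to 65048851, mm9), at rank 1591 of the 22071 peaks. A weak sham peak of the same time, with a score of 6.48, lay 354 bp away from it, with adjoining bases counted as 1 bp apart. The next scored 70.28 and lay on chromosome 10 (92540972 to 92541443), with the nearest peak of the 6 h sham list at 4982 bp. Both had a peak in the silenced liver 6 h after PH, at scores of 21.15 and 14.21.

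A pair of strong sites lay in a group on chromosome 9, at 45924887 to 45925490 (score 67.95) and at 45918579 to 45919172 (score 58.18). Between them lay a weaker PH6h-alone site (45920362 to 45920766, score 16.32). The nearest 6 h sham peak was 8885 bp from the stronger and 15203 bp from the other of the pair, and the nearest silenced 6 h peak was 79556 bp and 73248 bp away. The most isolated of the 10 strongest sites was also on chromosome 9 (35075067 to 35075592, score 67.14). Its nearest neighbour in the 6 h sham list was 55267 bp away and its nearest neighbour in the PH6h list itself 55388 bp away, yet the silenced 6 h list had a peak there with a score of 17.62, whose midpoint was 0.5 bp from that of the site.

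Of the other strongest sites, 2 lay on chromosome 3. That at 36366455 to 36366900 (score 66.94) had a silenced peak of score 15.58, while that at 10283559 to 10284045 (score 60.98) had none and lay 671 bp from a 6 h sham peak. The remaining sites had no silenced peak. They were on chromosome 15, with a score of 57.91 (76487224 to 76487651), on chromosome 5, with 56.71 (120953209 to 120953829), and on chromosome 2, with 56.4 (34265317 to 34265773). Thus 4 of the 10 strongest PH6h-alone sites had a counterpart in the silenced liver. All but the strongest lay in score decile 9 of the PH6h list. There 33.5% of peaks in both 6 h lists only and 47.3% of all PH6h peaks not alone had one, against 23.1% of PH6h-alone sites. At the other end, the 5 weakest sites scored between 5.27 and 5.47, and none of them had a silenced counterpart. They lay in decile 1, where 0.555% of PH6h-alone sites had one.

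The silenced liver taken 6 h after PH was not used to choose the sites. It shares operation and time with the PH6h library, but XBP1 was silenced and its list is shorter, with 4325 peaks against 22071. How far silencing or list length sets the shares below was not tested. Over all merged regions, 14.9% overlapped a peak of that list, and over all PH6h peaks 18.9% did. Among the PH6h-alone sites 124 of 4835 did (2.56%, 2.14 to 3.05%), far below both backgrounds. The silenced lists of basal liver and of liver 48 h after PH had no peak on any of the 4835 sites, which allows a share of up to 0.062% each, and these lists were short, with 177 and 102 peaks.

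At like scores the share was nearer to that of other PH6h peaks. Peaks in both 6 h lists only had a silenced counterpart in 697 of 9647 cases (7.23%, 6.72 to 7.76%). Weighted to the score deciles of the PH6h-alone sites, that share became 2.75% (2.45 to 3.04%, stratified binomial interval) against the 2.56% of the PH6h-alone sites. Over all other PH6h peaks, weighted in the same way, it was 3.98% (3.67 to 4.29%), above the interval of the PH6h-alone sites. With peaks within 1 kb counted as shared, the shares were 2.91% (2.40 to 3.49%) for PH6h-alone sites and 4.00% (3.61 to 4.39%) for peaks in both 6 h lists only. In each of the 8 deciles with at least 100 PH6h-alone sites the exact intervals of both kinds of site overlapped. PH6h-alone sites had the lower share in 5 of these 8. In the lowest decile the shares were 0.555% for PH6h-alone sites and 0.514% for peaks in both lists, and in decile 8 they were 20.9% and 16.9%. Intervals of this width do not show that the shares were equal.

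Sites found only in the 6 h sham liver less often had a peak in the same silenced list, but the rule that chose them bears on this. Sham6h-alone sites hold no PH6h peak by definition, while nearly all of the 4197 merged regions with a silenced peak hold one. A low share was thus largely set by that choice, and the values that follow are a description. Of the 5533 sham6h-alone sites, 19 overlapped a silenced peak (0.343%, 0.207 to 0.536%), so the share of PH6h-alone sites was 7.47 times as high. The ratio was 4.17 with midpoints within 250 bp in place of overlap, and 1.81 between equal numbers of the strongest peaks of each unsilenced list. Within quintiles of score among the sites of each kind, the PH6h-alone share was higher in all 5. In the strongest quintile 75 of 967 PH6h-alone sites had a silenced peak (7.76%, 6.15 to 9.63%), against 9 of 1107 sham6h-alone sites (0.813%, 0.372 to 1.54%). In the weakest quintile the counts were 6 of 967 and 3 of 1106, and the intervals overlapped there and in the next quintile. The quintiles cover unlike scores, in the strongest 17.2 to 91.26 for PH6h-alone and 14.21 to 53.19 for sham6h-alone sites, so they do not match strength. Sham6h peaks in both 6 h lists only, weighted to the score deciles of the sham6h-alone sites, had a silenced counterpart in 3.57% (3.16 to 3.97%), and these by definition lie on a PH6h peak. The silenced library shares both the operation and the time with the PH6h library, and whether it also shares handling or sequencing with it is not stated, so these cannot be told apart as sources of the difference.

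**Figure D2:**
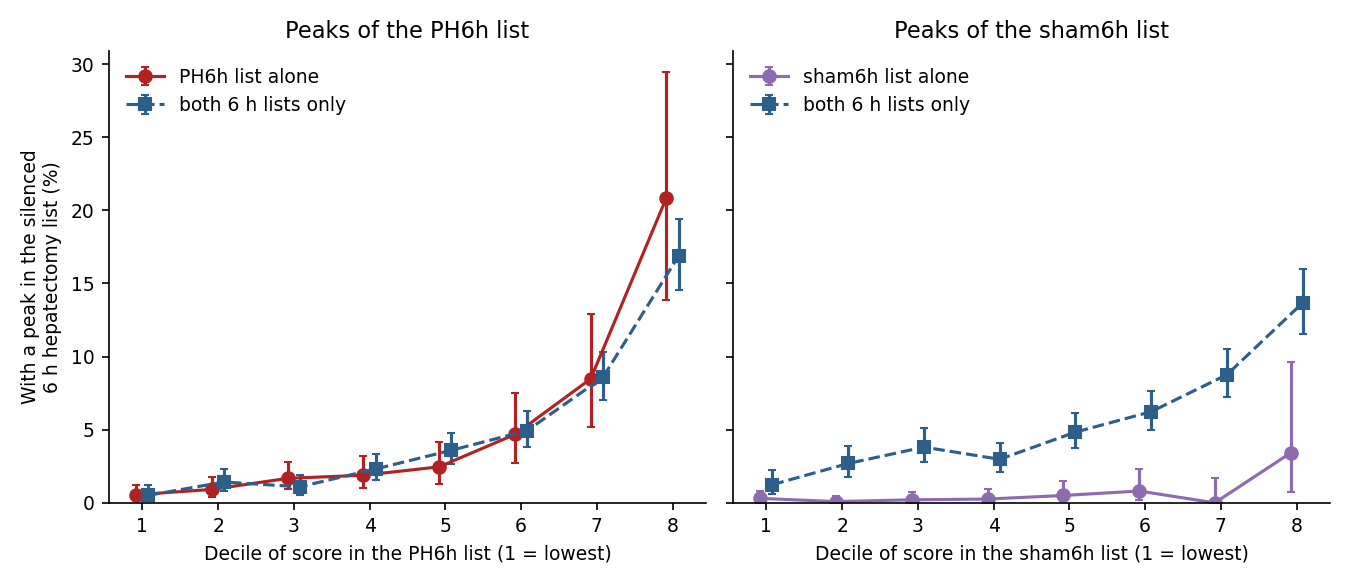
Percentage of peaks with a peak in the silenced list 6 h after PH, by decile of score within the PH6h list (left) and the sham6h list (right), with exact 95% intervals; deciles 9 and 10, with few sites in 1 list alone, are left out. PH6h-alone sites run from 0.555% to 20.9%, lower than the peaks of both 6 h lists in 5 of the 8 deciles, with overlapping intervals in each. Sham6h-alone sites lie below the peaks of both lists in all 8 deciles. By definition those peaks lie on a PH6h peak and sham6h-alone sites do not.

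The silenced counterparts sat squarely on the PH6h-alone sites. In the 124 pairs the midpoints were a median of 35.8 bp apart and at most 249.5 bp, and 111 pairs lay within 100 bp. The silenced peaks scored between 5.47 and 47.5 with a median of 12.04, against a median of 14.22 for the whole silenced list. The PH6h-alone sites that had one were themselves stronger, with a median score of 20.73 against 11.8 for those without, and came from 19 chromosomes. After those already given, the strongest were on chromosome 7 (123343992 to 123344846, score 55.86, silenced score 19.6), on chromosome 19 (34831666 to 34832381, score 55.24, silenced score 20.75) and on chromosome 17 (43041952 to 43042359, score 54.9, silenced score 27.53). Next came sites on chromosome 11 (59052413 to 59052857, score 53.4, silenced score 17.62), chromosome 19 (32298149 to 32298719, score 53.4, silenced score 12.04) and chromosome 9 (122224112 to 122224582, score 43.38, silenced score 19.62). Seen from the silenced list, 123 of its 4325 peaks (2.84%) lay on PH6h-alone sites and no other region, 18 on sham6h-alone sites and 691 on regions of both 6 h lists only.

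PH6h-alone sites lay closer to 6 h sham peaks than to peaks of the shorter lists. The median distance to the nearest peak was 8.18 kb for the 6 h sham list, 36.4 kb for the list 48 h after PH, 65.6 kb for the list 48 h after sham and 148 kb for the basal list. This order is also that of the lists by length, and how far length sets it was not tested. A 6 h sham peak stood within 1 kb of 919 PH6h-alone sites (19.01%) and within 100 bp of 79 (1.63%). Taking the 4 other unsilenced lists together, 19.6% were within 1 kb of a peak. In the reverse direction, 15.5% of the sham6h-alone sites were within 1 kb of a PH6h peak.

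**Figure D3:**
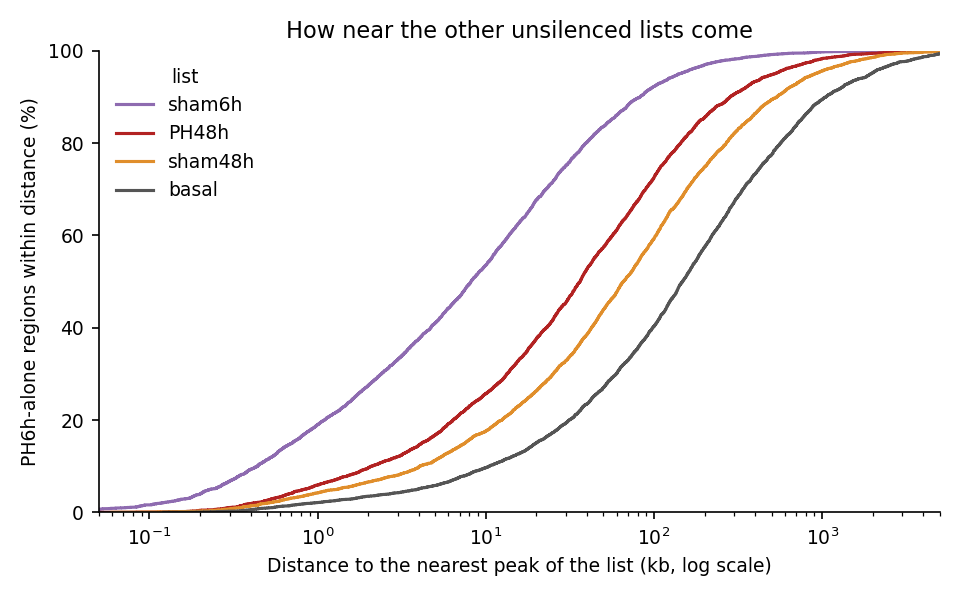
Cumulative percentage of the 4835 PH6h-alone sites within a given distance (kb, log scale) of the nearest peak in each of the other 4 unsilenced lists. The 6 h sham curve lies to the left, with 19.01% within 1 kb and 53.5% within 10 kb, and the basal curve to the right, with 9.68% within 10 kb.

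Sham peaks beside a PH6h-alone site were mostly shared with another PH6h peak, as were most 6 h sham peaks. For 763 of the 919 sites within 1 kb of a sham peak (83.0%), the nearest sham peak overlapped a different PH6h peak. Such a PH6h-alone site was a further peak beside a site of both lists. This counts sites, so a sham peak beside several sites counts for each. Over all 6 h sham peaks, counted as peaks, 74.1% overlapped a PH6h peak. For the 859 sham6h-alone sites within 1 kb of a PH6h peak, that peak overlapped another sham peak in 81.4%. At the other sites of the 919 the nearest sham peak had no PH6h peak on it, and there both lists called a peak in places that did not meet. PH6h-alone sites within 1 kb of a 6 h sham peak had a silenced counterpart in 1.52% (0.835 to 2.54%, 14 of 919), and the more distant sites in 2.81% (2.31 to 3.38%, 110 of 3916), at median scores of 11.72 and 12.19.

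Within their own list the spacing of PH6h-alone sites was close to that of other peaks. Another PH6h peak stood within 1 kb of 22.1% of them and of 21.5% of the other PH6h peaks, and within 10 kb of 55.9% and 58.0%. Of the 1070 PH6h-alone sites with a PH6h neighbour within 1 kb, the neighbour was itself alone in 306 and shared with another list in 764 (71.4%). Over the whole list 78.1% of the peaks were shared.

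The border of the group is a matter of a few bases for some sites. The 5 sites just inside it were 1 bp from a 6 h sham peak on chromosome 15 (58704370 to 58704861, score 21.94) and on chromosome 7 (27845019 to 27845362, score 14.21), 2 bp on chromosome 15 (78278030 to 78278353, score 13.19) and on chromosome 7 (87545919 to 87546271, score 19.53), and 3 bp on chromosome 6 (149116885 to 149117367, score 17.2). Just outside it, a 6 h sham peak overlapped by 1 bp on chromosome 19 (34793397 to 34793738, score 18.36), by 2 bp on chromosome 1 (184201550 to 184201994, score 13.84) and on chromosome 7 (117791682 to 117791940, score 7.53), by 3 bp on chromosome 7 (80704896 to 80705228, score 14.94) and by 8 bp on chromosome 12 (100495490 to 100496121, score 10.69). Such sites were few: 82 sites were within 100 bp of another unsilenced peak, and 85 PH6h peaks were kept out by an overlap of at most 100 bp.

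Along the genome PH6h-alone sites were spread much as the rest of the list, with chromosome X apart. On chromosomes 1 to 19 they made up 21.8% of the PH6h peaks (21.2 to 22.3%, 4751 of 21813), and by chromosome the share ran between 19.02% on chromosome 15 and 23.6% on chromosome 5. On chromosome X they made up 83 of 255 peaks (32.5%, 26.8 to 38.7%). Sham6h-alone sites made up 18.9% of the 6 h sham peaks on chromosome X (13.9 to 24.7%, 41 of 217) and 24.0% on chromosomes 1 to 19 (23.5 to 24.6%). These intervals overlapped, so an opposite order is not shown.

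PH6h peaks of chromosome X scored a little lower, with a median of 17.2 against 19.09 on chromosomes 1 to 19. In the lower 5 deciles of score the share alone was 48.6% on X (40.0 to 57.2%) and 37.1% on chromosomes 1 to 19 (36.2 to 38.0%). In the upper 5 deciles it was 13.04% on X (7.49 to 20.6%) and 6.47% on the others (6.01 to 6.94%). None of the 83 sites on X had a silenced counterpart, which allows a share of up to 3.61% and so does not set X apart from the 2.56% of all PH6h-alone sites. Chromosome X held 1.16% of the PH6h list, 0.94% of the 6 h sham list and 0.578% of the silenced 6 h list. Chromosome X was singled out after its value was seen, and with 1 library per condition a difference between animals cannot be told apart from one between operations.

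**Figure D4:**
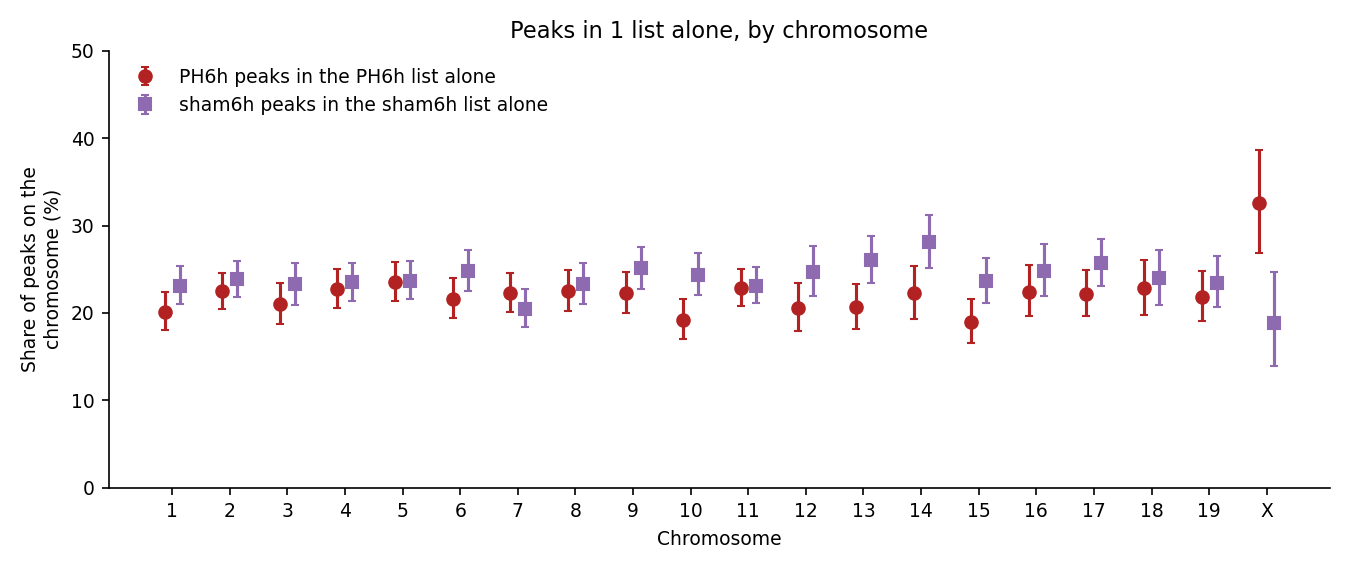
Percentage of the PH6h peaks of each chromosome that were in the PH6h list alone (circles) and of the 6 h sham peaks that were in the sham6h list alone (squares), with exact 95% intervals. Among the chromosomes drawn, X holds the highest PH6h-alone share, 32.5%, and the lowest sham6h-alone share, 18.9%; chromosome Y, with 1 of 3 and 0 of 2 peaks alone, is left out.

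Most 100 kb windows with PH6h-alone sites held few of them. The sites fell into 3499 of the 8326 windows with a PH6h peak. Of these 3499 windows, 2566 (73.3%) held 1 site, 659 held 2 and 274 held 3 or more. In 25 windows there were 5 or more. Like counts for other PH6h peaks or for an even spread were not made, so these do not tell whether the sites cluster. Runs of PH6h-alone sites, with each next PH6h peak within 10 kb and also alone, had 5 sites on chromosome 19 (5833740 to 5841299) and on chromosome 3 (82847635 to 82852705), and at most 4 elsewhere.

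The window with the most sites, 12, was on chromosome 3 (82800001 to 82900000). The 12 sites spread over 38.2 kb among 23 other PH6h peaks and were weak, with scores from 6.17 to 14.94 and a median of 9.2, against a median of 17.2 and a highest score of 113.6 for the others. The highest was at 82834949 to 82835412. None of the 12 had a silenced counterpart, which allows a share of up to 25%. They lay in score deciles 1 to 4, where at most 1.89% of all PH6h-alone sites had one.

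**Figure D5:**
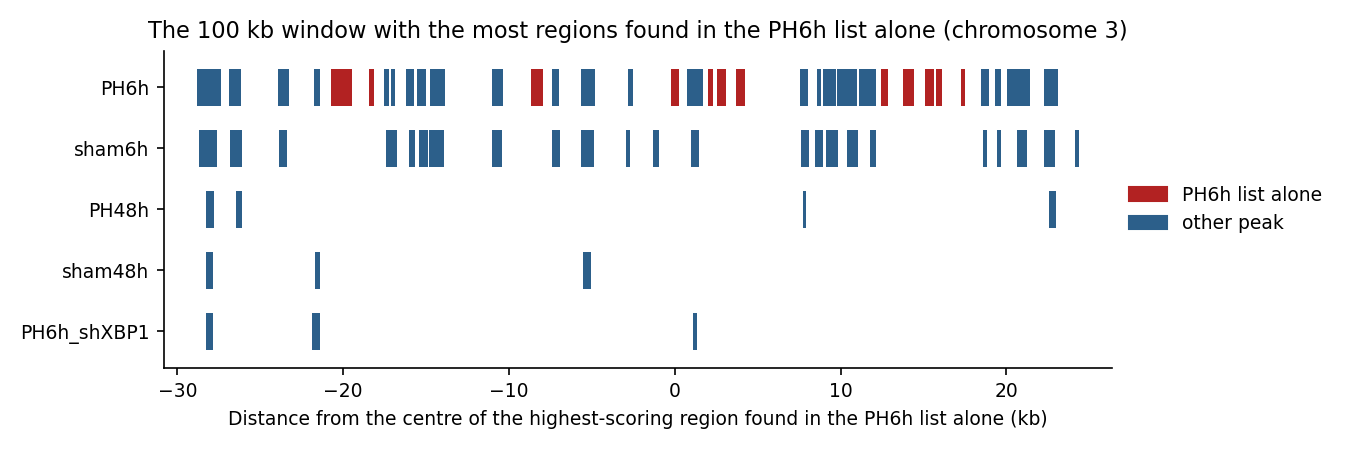
Peaks in the window of chromosome 3 with the most PH6h-alone sites, with 1 row per list, against the distance in kb from the centre of the highest-scoring of them; boxes are drawn to scale. The 12 PH6h-alone sites (first row, red) spread over 38.2 kb among other PH6h peaks, nearly all of which overlap a 6 h sham peak. Some of the sites follow one another with no other PH6h peak between them. The lists without a peak there are not drawn.

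The next windows differed in how much the other livers shared. On chromosome 2 (167100001 to 167200000) 8 of 13 PH6h peaks were alone, with scores from 6.73 to 25.42. On chromosome 11 (115600001 to 115700000) all 7 PH6h peaks were alone, with scores from 7.53 to 29.18, while the 6 h sham list had 2 peaks there and the other unsilenced and silenced lists had none. It was the only one of these windows without a peak of the lists taken 48 h after surgery. Windows on chromosome 19 (5800001 to 5900000) and chromosome 8 (87500001 to 87600000) also held 7 sites each, of 18 and 19 PH6h peaks, and the 6 h sham list had 16 and 13 peaks there. None of the 29 sites in these 4 windows had a silenced counterpart, which allows a share of up to 10.3%. They lay in score deciles 1 to 7, where the share of all PH6h-alone sites with one ran from 0.555% to 8.48% by decile. The count of 0 thus does not set these windows apart.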

How the data were processed

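Per the submitters' processing notes, reads were handled with Bowtie2 and MACS 1.4.2 on mm9; their settings and any use of the input DNA as control are not given in the sources at hand. The 8 deposited lists give chromosome, start, end and a score per peak. The deposited score was read as a −log10 p-value, because the lowest scores of the lists lie near 5. MACS 1.4.2 usually writes 10 times that value; on such a scale the lowest scores would stand for p-values too high for a peak call, but no source at hand states the scale. Scores were used within a list only. Depth is unknown.

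Starts were written 1-based. Members, tests and lists were chosen with earlier results of these data known, and the weighting by score decile, the sham6h-alone weighting, the comparison of chromosome X and the runs after seeing the values. Deciles break ties by position. Shares have exact Clopper-Pearson intervals at 95%, and a count of 0 among 12 or more sites is given with the limit that 3 counts set. Sites were named by rule: the 10 strongest, the 10 strongest with a silenced peak, the 5 weakest, the 5 on either side of the border and the densest windows, all ties included. Python 3.11.15, NumPy 2.4.6, pandas 2.3.3, SciPy 1.17.1 and matplotlib 3.10.9 were used. Counting was tested on simulated data and against bedtools 2.31.1. Gene and motif counts, planned only for an mm9 reference, were not run. The input DNA was not analysed here.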

Additional observations from a re-analysis of the deposited data

How the results depend on the processing

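With 1 library per condition no paired analysis was possible because no condition has a numbered replicate. The number of PH6h-alone sites stayed between 3432 and 5683 under 11 of 13 alternatives. It was 14482 without the 6 h sham list, which shows how far that list defines the group, and 287 with equal numbers, that is the strongest peaks of each list up to the length of the shortest. The share of these sites with a silenced 6 h peak was 2.05% with a score of at least 10 in every list, 3.38% with that score in the PH6h list only, 58.9% with equal numbers and 5.67% without the sham list, against 2.56% as reported. The sham6h-alone share was 0.628% with midpoints within 250 bp and 32.6% with equal numbers, and lay below the PH6h-alone share in all 11 alternatives, whose ratios ran from 1.81 to 9.21. Each alternative again chose the sham6h-alone sites for having no PH6h counterpart, so this order was largely set by the choice.

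The weighted share of PH6h peaks in both 6 h lists only, 2.75%, became 3.33% with midpoints within 250 bp, 3.36% and 4.00% with gaps of 500 bp and 1 kb counted as shared, 68.1% with equal numbers and 3.45% without the list 48 h after PH. The PH6h-alone share was between 0.73 and 0.93 times it in the 11 alternatives, which reuse the same lists. Only with gaps of 1 kb were the intervals apart, at 2.4 to 3.49% for PH6h-alone sites against 3.61 to 4.39%. In the main setting and all other alternatives the intervals overlapped, in some barely, as with overlap of 50% (1.85 to 2.63% against 2.58 to 3.15%). Overlap of separate intervals does not decide whether the shares differed, and the difference itself was not tested. The weighted share of sham6h peaks, 3.57%, became 4.14%, 4.64%, 68.5% and 4.39% under both gaps, equal numbers and without the 48 h PH list.

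The share of sites within 1 kb of another unsilenced peak, 19.6%, became 31.6% with overlap of 50% of the peak, 26.7% by midpoints, 8.91% with gaps of 500 bp, 15.9% and 17.8% with a score of at least 10 in every list and in the PH6h list only, 5.23% with equal numbers and 7.46% without the sham list. On chromosome X the share alone became 13% with equal numbers (23 peaks) and 75.7% without the sham list. On chromosomes 1 to 19 it became 25.7% with overlap of 50%, 23.9% by midpoints, 19.2% and 17.5% with both gaps, 24.3% and 17.8% with the score limits, 11.5% with equal numbers, 65.5% without the sham list and 22.6% without the list 48 h after PH. It was higher on X than on the others in all 13 alternatives, which reuse the same lists, with ratios between 1.13 and 1.73. The lowest ratio came with equal numbers, where the intervals overlapped (2.78 to 33.6% on X, 10.3 to 12.9% on the others) and an excess on X is not shown. Alternatives for chromosome X, the sham6h-alone sites and the weighted shares were chosen after seeing the data, and causes were not tested. Unknown depth limits every statement of absence.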
